A study of Homo sapiens with 7 samples.

Results

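TBXT, EOMES, MESP1, MESP2, MIXL1, GSC and TBX6, 7 transcription factors of early mesoderm, were examined over 7 fixed gene spans on the hg19 genome, and every CpG listed inside a span was a member. The spans were not set by methylation values. Of 2586954 CpGs listed in any library outside the mitochondrial genome, 929 lay in them. Of 1734462 CpGs with 10 or more reads in each library, here called shared CpGs, 682 did: 130 at TBXT, 102 at EOMES, 62 at MESP1, 86 at MESP2, 72 at MIXL1, 139 at GSC and 91 at TBX6.

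The assay was enhanced reduced representation bisulfite sequencing, which reads CpG-rich fragments after unmethylated cytosine has been converted, so that methylated cytosine still reads as C. HUES8, a human embryonic stem cell line, was used unmodified (wild type, WT) and as a triple knockout of TET1, TET2 and TET3 (TKO). TET enzymes oxidise methylated cytosine, a step towards its removal, and the comparison asks how these loci are methylated when that step is missing. Stem cells (SC) were taken on day 0. Cardiac mesoderm (CME) was taken on day 3 and cardiac progenitors (CP) on day 8, in both genotypes. Cardiomyocytes (CM) were WT alone, on day 14 by the series text and day 15 by the sample's own description. The source name of that sample reads CME, and its place as CM rests on its title. Differentiation used 6 µM CHIR99021, a WNT activator removed on day 2, and then 5 µM IWP2, a WNT antagonist present from day 3 to day 5. Each group was 1 library. It is not stated whether the TKO line is 1 clone. Stage and knockout could not be checked by expression, and the assay does not separate methylated cytosine from its first oxidised form.

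During gastrulation, epiblast cells that receive WNT and Nodal signals form the primitive streak, and the T-box factors TBXT (brachyury) and EOMES are among the first genes they switch on. MIXL1 and GSC are homeobox factors of the streak, GSC being known from its organiser region. MESP1 and MESP2 are neighbouring bHLH genes: MESP1 marks the first cardiac mesoderm, and MESP2 is best known for patterning the somites, as the T-box factor TBX6 is for presomitic mesoderm.

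Distances are in bases from the gene start, positive in the direction of transcription. Starts were placed by sliding each RefSeq promoter sequence (250 bases before to 50 after the start) along the listed CpGs until the spacing matched. In hg19 this gave chr6:166582143 for TBXT, chr3:27763814 for EOMES, chr15:90319563 for MESP2, chr1:226411365 for MIXL1, chr14:95236450 for GSC and chr16:30103245 for TBX6. The match rested on 5 CpGs at TBXT, MESP2 and GSC, and on 18, 29 and 31 at EOMES, MIXL1 and TBX6. For MESP1 an hg19 position rounded to 100 bases was used. The promoter is the stretch within 1.5 kb of the start. Exons and introns were not assigned.

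Promoter sequences of 4 genes are shown because their CpGs carry the contrast. MESP2 has 5 shared CpGs near its start. They were mostly methylated in WT SC and each TKO library, at 48.1% in WT CME, and low in WT CP and WT CM. TBX6 has an unmethylated start beside a methylated flank, MIXL1 has a CpG-dense unmethylated start, and EOMES had no CpG called between the genotypes. They are RefSeq sequences of GRCh38.p14 in the direction of transcription. Capitals mark the shared CpGs.
MESP2, plus strand, chr15:89776082-89776381: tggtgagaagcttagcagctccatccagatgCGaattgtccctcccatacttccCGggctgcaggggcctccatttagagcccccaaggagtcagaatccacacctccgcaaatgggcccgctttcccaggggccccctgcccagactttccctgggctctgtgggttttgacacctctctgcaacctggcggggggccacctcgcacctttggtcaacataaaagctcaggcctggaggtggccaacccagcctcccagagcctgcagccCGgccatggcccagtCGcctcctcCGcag
TBX6, minus strand, chr16:30091875-30092174: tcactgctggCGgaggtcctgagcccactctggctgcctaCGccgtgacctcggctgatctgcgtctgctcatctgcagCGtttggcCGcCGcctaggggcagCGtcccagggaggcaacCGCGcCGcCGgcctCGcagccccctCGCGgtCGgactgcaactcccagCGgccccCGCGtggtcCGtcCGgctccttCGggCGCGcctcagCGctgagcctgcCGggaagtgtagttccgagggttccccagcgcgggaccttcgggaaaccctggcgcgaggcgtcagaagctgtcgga
MIXL1, plus strand, chr1:226223414-226223713: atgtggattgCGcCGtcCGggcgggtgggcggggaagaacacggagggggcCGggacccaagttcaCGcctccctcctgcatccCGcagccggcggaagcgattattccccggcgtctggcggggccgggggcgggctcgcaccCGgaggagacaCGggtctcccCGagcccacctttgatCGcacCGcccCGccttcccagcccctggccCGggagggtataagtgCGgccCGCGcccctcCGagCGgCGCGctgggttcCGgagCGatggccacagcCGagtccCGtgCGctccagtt
EOMES, minus strand, chr3:27722274-27722573: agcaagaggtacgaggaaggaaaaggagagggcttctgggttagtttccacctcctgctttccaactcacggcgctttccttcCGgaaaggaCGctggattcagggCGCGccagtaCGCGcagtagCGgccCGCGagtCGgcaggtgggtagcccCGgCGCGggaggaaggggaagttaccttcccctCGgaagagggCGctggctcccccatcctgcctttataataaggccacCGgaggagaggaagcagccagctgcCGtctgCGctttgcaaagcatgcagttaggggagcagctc

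The MESP2 window is the poorest in CpGs, with 9, of which 5 were shared. TBX6 has 35 (24 shared), MIXL1 37 (25 shared) and EOMES 21 (18 shared). On either strand, the TCF/LEF core, CTTTGAT or CTTTGAA, was found 1 time in the MIXL1 window, forward from base 175, and 1 time at a second, inner RefSeq start of TBXT. It was present in 6.86% of 35116 RefSeq promoter windows. The T-box motif AGGTGTGA was in none of the members' windows and in 0.980% of all. The MspI site CCGG, which contains a CpG, was found 2 times at MESP2, 3 times at TBX6, 8 times at MIXL1 and 3 times at EOMES, and in 63.1% of all windows.

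Median depth over shared member CpGs ran from 49.5 reads in WT SC to 127 in TKO CME. Mitochondrial DNA, a gauge of unconverted cytosine, read as C in 1.46% of reads in WT SC and 1.44% in WT CME, against 0.139% to 0.387% in the 5 other libraries. These 2 libraries also carry a suffix, BS, in their descriptions that the others lack. What it marks is not stated, and within WT it cannot be told apart from stage. Each fall from WT SC or WT CME to a later WT library is thus also a comparison across that label. So is TKO minus WT at SC and at CME, but not at CP. A genotype gap that widens from SC or CME to CP therefore crosses the label too. Subtracting each library's mitochondrial share left the number of called member tiles as it was in all 9 pairs of libraries, but it moved differences of 1 to 2 points at low levels. With 1 library a group there is no replicate spread: the tests compare libraries, not conditions, and cover counting error only, which they understate because a read across several CpGs counts at each and PCR copies are not separate molecules.

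At the promoters of TBXT, EOMES, MIXL1 and GSC methylation was low in every library. In what follows, WT values are ordered from SC through CME and CP to CM, and TKO values from SC through CME to CP. The TBXT promoter (104 CpGs) measured 1.62%, 1.42%, 0.151% and 0.209% in WT and 1.33%, 1.09% and 2.08% in TKO. EOMES (92 CpGs) measured 1.79%, 1.28%, 0.181% and 0.194% in WT and 2.03%, 0.687% and 1.57% in TKO. In both T-box genes the later WT stages lay below the earlier ones, as the mitochondrial gauge did. With the mitochondrial share subtracted, the WT CP minus WT CME difference was 0 points at both, since levels under the share are set to 0. MIXL1 (72 CpGs) measured 2.82%, 2.39%, 0.310% and 0.800% in WT and 3.43%, 1.46% and 3.79% in TKO. GSC (111 CpGs) measured 2.12%, 1.77%, 0.483% and 0.606% in WT and 1.5%, 1.28% and 3.54% in TKO. At CP all 4 promoters were slightly higher in TKO, as was the median of 10597 other genes with a placed start, by 0.664 points. The gaps exceeded those of 60.7% (EOMES), 66.0% (TBXT), 74.0% (GSC) and 75.8% (MIXL1) of these other genes. The gap was 1.93 points at TBXT (95% Newcombe interval 1.66 to 2.23), 1.39 at EOMES (1.15 to 1.65), 3.48 at MIXL1 (3.07 to 3.92) and 3.06 at GSC (2.68 to 3.46). These gaps barely moved when the mitochondrial share was subtracted, lying at 1.43 to 3.56 points. Other strands, weights, windows and CpG sets moved them beyond these intervals, with the sign kept. Over 7 alternatives the gap ran from 0.799 to 2.08 points at TBXT and from 1.15 to 1.76 at EOMES. It ran from 3.01 to 6.10 at MIXL1 and from 1.28 to 3.72 at GSC. At SC the subtraction turned the sign at TBXT, from -0.288 to 1.03 points, and at GSC, from -0.614 to 0.694, and at CME it did so at all 4 genes, from -0.932 to -0.334 points before it to 0.108 to 0.706 after. No direction is given for these.

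The other 3 promoters were partly methylated, and there the libraries stood far apart. The MESP1 promoter (51 CpGs, all downstream of the start) measured 7.58%, 4.84%, 1.65% and 3.10% in WT and 26.7%, 22.3% and 35.4% in TKO. TBX6 (76 CpGs) measured 13.7%, 16.7%, 11.5% and 19% in WT and 23%, 22.9% and 35.7% in TKO. MESP2 (84 CpGs) measured 26.8%, 23.2%, 8.32% and 12.3% in WT and 23.5%, 26.6% and 31.6% in TKO. At MESP2 the WT SC value lay among the TKO values, and WT CP and WT CM lay below all other libraries. From WT CP to TKO CP the gap was 33.8 points at MESP1 (95% Newcombe interval 32.3 to 35.3), 24.2 at TBX6 (22.9 to 25.5) and 23.2 at MESP2 (22.1 to 24.4).

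**Figure D1:**
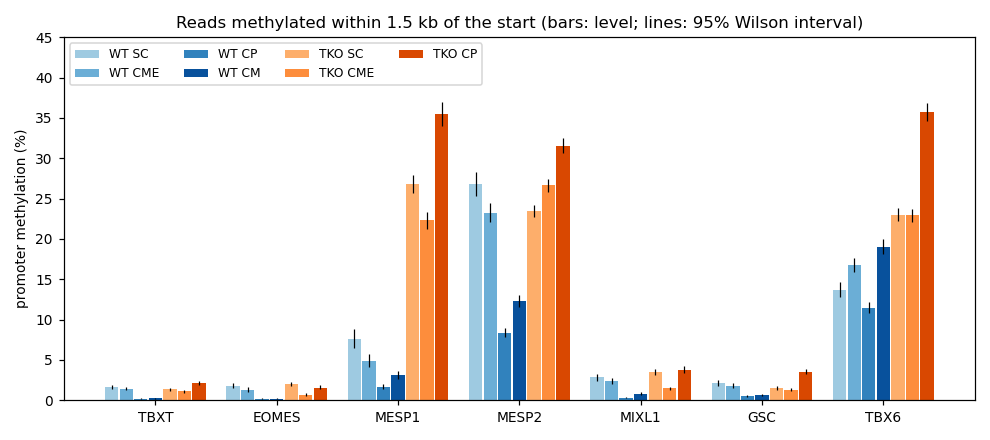
Share of methylated reads within 1.5 kb of the start (vertical axis, percent) for the 7 genes in the 7 libraries; bars are levels and lines are 95% Wilson intervals, 1 library per bar. MESP1, MESP2 and TBX6 reach 31.6% to 35.7% in TKO CP, while TBXT, EOMES, MIXL1 and GSC stay under 4% in all libraries.

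Ranked by promoter level, WT SC ran MESP2, TBX6, MESP1, MIXL1, GSC, EOMES and TBXT, and each of the last 4 had a Wilson interval overlapping that of its neighbour. TKO CP ran TBX6, MESP1, MESP2, MIXL1, GSC, TBXT and EOMES, with overlap between TBX6 and MESP1 and between MIXL1 and GSC. Among 10597 other genes whose start could be placed, the median TKO minus WT promoter difference was -0.623 points for SC, -0.652 for CME and 0.664 for CP. For the 7 genes these medians were 0.240, -0.334 and 3.48 points. Promoters 25 points or more higher in TKO made up 3.27%, 3.18% and 4.95% of the other genes at the 3 stages in turn. Of the 7 genes there were 0, 0 and 1, the 1 being MESP1. The MESP1 difference exceeded that of 95.8%, 95.8% and 96.2% of the other genes at the 3 stages in turn. For TBX6 the shares were 92.7%, 91.0% and 94.9%, and for MESP2 5.50%, 86.9% and 94.8%.

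**Figure D2:**
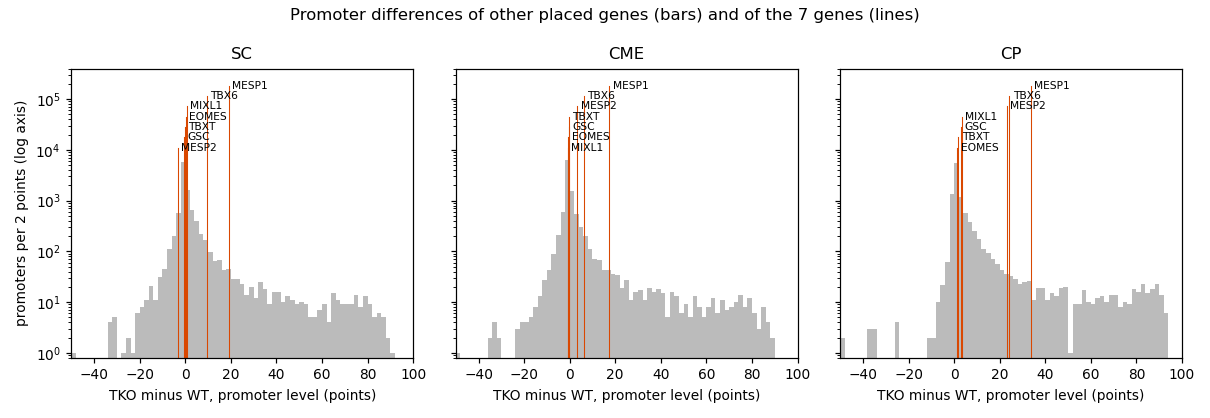
Number of other genes (vertical axis, logarithmic) by TKO minus WT promoter difference in points (horizontal axis) at SC, CME and CP; orange lines mark the 7 genes, and their heights only separate the labels. At CP, MESP1, TBX6 and MESP2 lie between 23.2 and 33.8 points, and the 4 other genes between 1.39 and 3.48.

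To locate the differences, reads were summed in 1 kb tiles with 5 or more shared CpGs. The 7 loci held 23 of 85087 tiles: 5 at TBXT, 3 at EOMES, 3 at MESP1, 2 at MESP2, 1 at MIXL1, 5 at GSC and 4 at TBX6. A tile was called at a difference of 25 points or more and an adjusted p below 0.01 (two-sided Fisher's exact test, Benjamini-Hochberg over all tiles). Higher in TKO were 3 of the 23 at SC, where 6.26% of all tiles were, 3 at CME, where 6.02% were, and 7 at CP, where 12.0% were. Over the genome such calls were more frequent in tiles under 20% in WT SC, which 17 of the 23 were. Of these 17, 2, 2 and 3 were called at SC, CME and CP (11.8%, 11.8% and 17.6%), against 10.2%, 10.1% and 13.1% of all such tiles. Of the 6 others, 1, 1 and 4 were called (16.7%, 16.7% and 66.7%), against 4.18%, 3.86% and 11.4%. No member tile was called lower in TKO, and over the genome such calls made up 0.119%, 0.0846% and 0.0458% of tiles. The 16 member tiles without a call at CP were above WT by 0.989 to 19.2 points. TKO CP thus exceeded WT CP in 23 of 23 tiles, against 69.9% of all tiles. At SC and CME, TKO exceeded WT in 11 and 12 of the 23, against 35.6% and 32.6% of all tiles, and in these 2 comparisons WT is the library with the higher mitochondrial gauge.

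**Figure D3:**
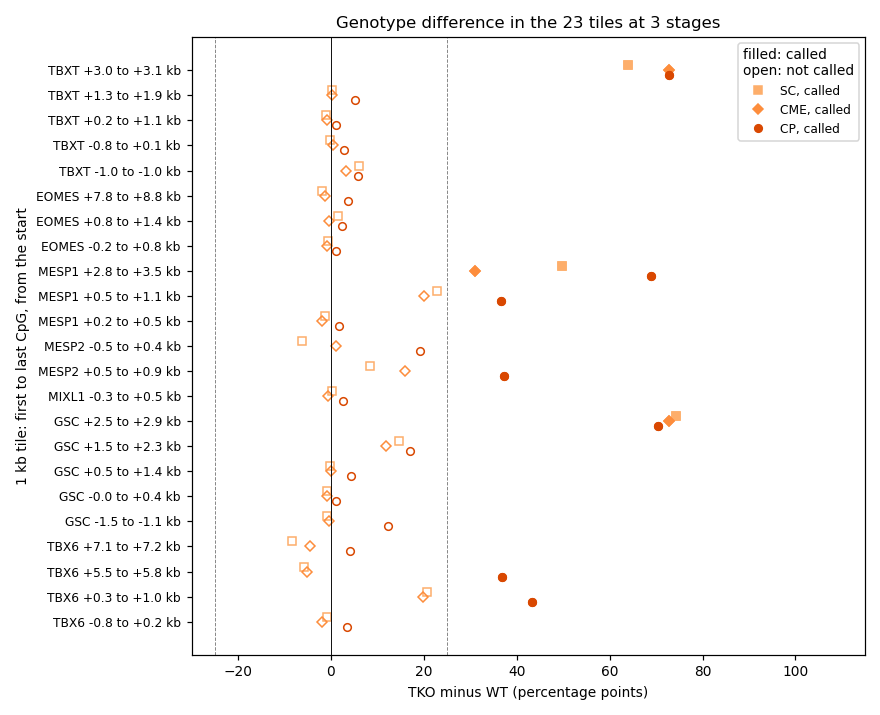
TKO minus WT difference in points (horizontal axis) for the 23 tiles, named by gene and by the distance of the first and last CpG from the start; squares, diamonds and circles are SC, CME and CP, filled where called. The tiles of TBXT, MESP1 and GSC that begin 2.5 to 3.0 kb downstream lie far right for all 3 stages, and 4 further tiles are filled for CP alone.

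The 3 tiles called at every stage all lay downstream of a start, past a stretch of low methylation. At TBXT, 7 CpGs inside the gene, from 2980 to 3086 bases (tile chr6:166579001-166580000), measured 5.86%, 8.62%, 2.56% and 2.04% in WT and 69.9%, 81.4% and 75.3% in TKO. The differences were 64.0, 72.8 and 72.7 points (adjusted p = 1.93e-91, 3.24e-112 and 1.53e-123, Fisher's exact test). The next 15 CpGs towards the start, from 1747 to 1925 bases, measured 3.03%, 3.51%, 0.705% and 0.673% in WT and 3.19%, 4.47% and 8.07% in TKO. Within these 15, TKO CP was highest at 1925 bases, a CpG that measured 12.7%, 13.5%, 0% and 0% in WT and 17.3%, 15.2% and 33.9% in TKO. It was called higher at CP. At the other end, the CpG at 1747 bases measured 1.61% in WT CP and 23.7% in TKO CP, without a call. Those between measured 0% to 13.4% in TKO CP, with no steady slope towards the called tile. No shared CpG lay between 3086 and 10112 bases, and the last 4 CpGs, from 10112 to 10162 bases, measured 64.8% to 74.2% over the 7 libraries. At SC, 1 TBXT CpG was lower in TKO, the only such CpG among the members (0.261% of all CpGs).

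At GSC, 10 CpGs beyond the end of the gene, from 2479 to 2897 bases (chr14:95233001-95234000), measured 6.58%, 9.84%, 7.77% and 8.15% in WT and 80.9%, 82.7% and 78.2% in TKO. The differences were 74.3, 72.8 and 70.5 points (adjusted p = 4.55e-190, 6.88e-205 and 2.43e-152, Fisher's exact test). As at TBXT, every TKO library was far above every WT library, and the stages differed little. The neighbouring tile, from 1452 to 2251 bases, measured 2.38%, 5.68%, 1.97% and 2.22% in WT and 17.1%, 17.6% and 18.9% in TKO and was not called. It pooled unlike CpGs. The 12 from 1526 to 1624 bases measured 5.15%, 7.65% and 10.1% in TKO. The 3 from 2138 to 2479 bases, the last of them in the called tile, measured 4.42%, 10.4%, 5.50% and 7.55% in WT. In TKO these 3 measured 69.3%, 70.4% and 65.7%. On the upstream side, 22 CpGs from -1458 to -1124 bases measured 4.66%, 3.61%, 2.04% and 2.75% in WT and 3.72%, 3.28% and 14.4% in TKO. There TKO CP alone stood out, without a call of the tile. As single CpGs, 2 of the 22 were called higher in TKO at CP, where 10.3% of all CpGs were.

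At MESP1, 11 CpGs past the end of this short gene, from 2815 to 3469 bases (chr15:90291001-90292000), measured 34.1%, 28.3%, 16.3% and 25.9% in WT and 83.8%, 59.2% and 85.2% in TKO. The differences were 49.7, 30.9 and 68.9 points (adjusted p = 3.27e-119, 8.45e-52 and 7.01e-277, Fisher's exact test). TKO CME was the low library of the TKO series. The rise of 25.9 points from TKO CME to TKO CP (adjusted p = 7.70e-54, Fisher's exact test) was the 1 member tile called in that comparison, where 0.772% of all tiles were called higher. It was not called with the tile grid shifted by 500 bp. The genotype gap at MESP1 was 38.0 points wider at CP than at CME and passed the z test on reads.

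Inside MESP1 the difference began past the first CpGs of the gene. The 9 CpGs from 182 to 498 bases measured 2.05%, 3.10%, 0.341% and 0% in WT and 0.691%, 1.13% and 2.10% in TKO. The 42 CpGs from 500 to 1050 bases (chr15:90293001-90294000) measured 8.43%, 5.02%, 1.81% and 3.28% in WT and 31.3%, 25.1% and 38.5% in TKO. The tile was called at CP, by 36.7 points (adjusted p = 3.72e-299, Fisher's exact test), and the differences of 22.8 and 20.1 points at SC and CME were under the size threshold. The step was seen between single CpGs a few bases apart, chosen after their values were seen. The CpG at 626 bases measured 0%, 0%, 0% and 1.37% in WT and 1.28%, 4.51% and 7.04% in TKO. The next, at 629 bases, measured 12.3%, 6.86%, 0% and 4.11% in WT and 21.2%, 33.1% and 23.9% in TKO, and the one after, at 662 bases, 6.61%, 10.5%, 0% and 2.48% in WT and 73.2%, 57.2% and 74.8% in TKO. Farther in, TKO CP was uneven, at 23.3% at 718 bases and 94.0% at 858. With a promoter of 500 bases each side, the MESP1 difference between TKO CP and WT CP was 1.46 points in place of 33.8, so that the promoter value reflects CpGs inside the gene. The genes whose promoter levels were most like those of MESP1 over the 7 libraries were TAGLN2, SPAG6 and LOC124900372, with mean absolute differences of 2.09, 2.13 and 2.29 points.

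MESP2 differed at CpGs close to the start itself. The 5 CpGs in capitals in its sequence, at -219, -196, 21, 36 and 45 bases, together measured 70.6%, 48.1%, 6.67% and 8.97% in WT and 84.6%, 85.0% and 90.4% in TKO. WT thus went from mostly methylated stem cells to mostly unmethylated progenitors, while TKO stayed high. The CpG at 21 bases measured 67.7%, 29.8%, 1.92% and 0% in WT and 93.7%, 71.1% and 88.5% in TKO. The 12 CpGs from -451 to -196 bases measured 85.0%, 83.9%, 47.6% and 51.6% in WT and 86.8%, 84.9% and 92.6% in TKO. Of these 12, 7 were called lower between WT CME and WT CP, and 8 were called higher in TKO at CP (Fisher's exact test on single CpGs, adjusted over all 1734462, same thresholds). Over the genome 2.15% and 10.3% of CpGs were called in these directions. The outermost, at -451 bases, was high in every library, at 92.3%, 91.5%, 90% and 91.4% in WT and 93.8%, 88.9% and 92.9% in TKO.

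Downstream of the MESP2 start lay a second stretch with another pattern. The 56 CpGs from 21 to 492 bases measured 9.43%, 5.22%, 0.698% and 1.39% in WT and 9.30%, 9.63% and 13.9% in TKO. The 16 CpGs from 513 to 912 bases measured 32.3%, 36.1%, 32.0% and 32.3% in WT and 61.1%, 68.1% and 80.3% in TKO. In this last stretch WT was alike at its 4 stages, unlike the CpGs upstream. The tile of 23 CpGs from 451 to 912 bases (chr15:90320001-90321000), at 26.1%, 28.8%, 17.8% and 20.8% in WT and 34.6%, 44.8% and 55.0% in TKO, was called at CP by 37.2 points (adjusted p = 6.44e-127, Fisher's exact test). Its genotype gap was 28.7 points wider at CP than at SC, past the threshold of the z test, but 12.2 points wider with each CpG counted equally. The tile over the start (chr15:90319001-90320000, 61 CpGs) measured 27.1%, 20.6%, 5.90% and 9.79% in WT and 21.0%, 21.7% and 25.1% in TKO. It was not called at any stage, but its gap was 25.4 points wider at CP than at SC by the z test. That value was 17.0 with each CpG counted equally and 24.5 with the mitochondrial share subtracted, both under the size threshold. Weighting matters in such a mixed window: the MESP2 promoter difference at SC was -3.31 points with reads pooled and 9.02 with each CpG counted equally.

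TBX6 combined an unmethylated start with flanks that differed. In its printed window the 24 shared CpGs together measured 0.778%, 1.24%, 0.0600% and 0% in WT and 0.860%, 0.321% and 1.10% in TKO. The WT CM value was 0 of 2305 reads, which allows up to 0.130% by a limit of 3 counts. The 15 CpGs from 243 to 451 bases measured 2.57%, 6.73%, 6.00% and 12.5% in WT and 19.1%, 18.3% and 40.1% in TKO. The 21 CpGs from 505 to 999 bases measured 52.2%, 58.0%, 43.9% and 55.4% in WT and 76.2%, 82.0% and 90.02% in TKO. Methylation thus climbed within 1 kb of the start in every library, and nearer to the start in TKO. The tile of 36 CpGs from 264 to 1044 bases (chr16:30102001-30103000) was called at CP, at 26.2% in WT and 69.6% in TKO, a difference of 43.4 points (adjusted p = 3.91e-277, Fisher's exact test). The differences of 20.7 and 19.7 points at SC and CME were under the size threshold. Upstream, 5 CpGs from -797 to -752 bases measured 8.97%, 16%, 22.7% and 23.1% in WT and 20.4%, 14.8% and 67.0% in TKO, with TKO CP apart from the rest.

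The low stretch around a start was measured outwards until 2 neighbouring CpGs, or the outermost CpG alone, reached 20%. At TBX6 it was 1303, 1275, 1440 and 1485 bases long in WT, and 1160, 1147 and 666 in TKO. At TBXT it was 4123 bases in each WT library, and 2962, 2962 and 2948 in TKO. At GSC it was 4340 bases in each WT library, and 3248, 3248 and 2582 in TKO. At EOMES it ran over all shared CpGs, 9468 bases, in each of the 7 libraries. However, no shared EOMES CpG lay between 1362 and 7601 bases, and the 10 from 7601 bases on lay past the end of the gene. The inner part of EOMES was thus not measured. At TBX6, TBXT and GSC, every TKO length was below every WT length, an order not looked for outside the 7 genes. MIXL1 had no such order, with 831, 993, 1236 and 1074 bases in WT and 784, 1074 and 732 in TKO. At MESP1, counted from the start downstream, it was 859, 1029, 3430 and 1051 bases in WT and 627 in each TKO library. At MESP2 it was 884 bases for WT CP and the same for WT CM. For every other library the count ended at the nearest CpGs, at -196 and 21 bases, which were high there. These libraries did have low CpGs farther in. Over the 56 CpGs from 21 to 492 bases the median CpG was 0% in each WT library and 2.76%, 1.89% and 4.98% in TKO. The lengths are steps between shared CpGs, so an edge can lie anywhere in a gap. At EOMES, the outermost 2 CpGs upstream, from -659 to -623 bases, together measured 7.02%, 6.31%, 1.79% and 0% in WT and 14.4%, 12.6% and 14.9% in TKO.

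**Figure D4:**
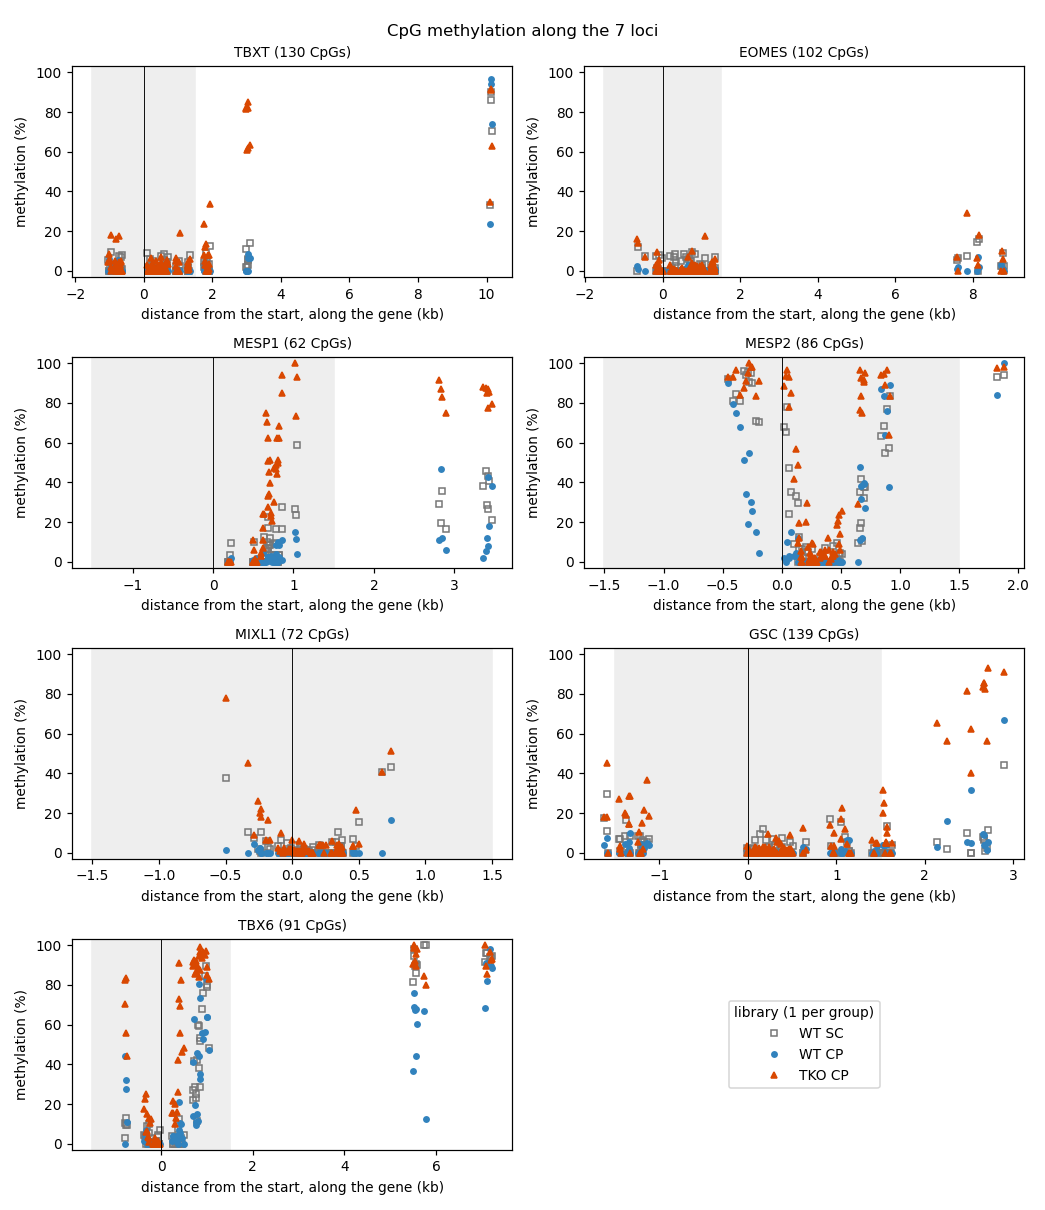
Methylation of each shared CpG (vertical axis, percent) by distance from the start in kb (horizontal axis) at the 7 loci in WT SC (open grey squares), WT CP (blue circles) and TKO CP (orange triangles), with the promoter shaded. TKO CP points leave the WT points near 3 kb at TBXT, past 2 kb at GSC and within 1 kb at MESP1 and TBX6.

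Near the end of TBX6, methylation fell in WT between CME and CP, and the TKO libraries stayed high. The 9 CpGs from 5501 to 5778 bases (chr16:30097001-30098000) measured 90.5%, 88.9%, 57.1% and 62.7% in WT and 84.7%, 83.7% and 94.0% in TKO. From WT CME to WT CP the tile fell by 31.8 points (adjusted p = 3.33e-31, Fisher's exact test), and from WT SC to WT CM by 27.8 points (adjusted p = 1.52e-27). It was the 1 member tile called in each of these comparisons, where 3.38% and 2.81% of all tiles were called lower. TKO CP was above WT CP by 36.9 points (adjusted p = 2.38e-46, Fisher's exact test). The genotype gap at CP was wider than at SC by 42.7 points and wider than at CME by 42.1 points, both past the threshold of the z test. Beyond the gene, 6 CpGs from 7070 to 7224 bases were high throughout, at 94.4%, 94.1%, 88.7% and 87.1% in WT and 86.0%, 89.5% and 92.9% in TKO.

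Between the remaining stages no member tile was called. This covers WT CME minus WT SC, with 0.0400% of all tiles called in either direction, WT CM minus WT CP, with 0.0529%, and TKO CME minus TKO SC, with 0.0411%. In the last, the MESP1 tile from 2815 to 3469 bases came close. It fell by 24.6 points (adjusted p = 9.24e-46, Fisher's exact test), just under the size threshold. From WT CME to WT CP, 0 of the 23 member tiles were higher, against 20.9% of all tiles, and the mitochondrial gauge dropped between the same libraries. The genotype gap was wider at CP than at SC in 3 member tiles, where 5.67% of all tiles were wider, and wider at CP than at CME in 2, where 5.67% were.

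Single CpGs show how the calls were spread over the genes. Of the 682 member CpGs, 69 were higher in TKO at SC, where 5.77% of all CpGs were, 67 at CME, where 5.90% were, and 119 at CP, where 10.3% were. The 119 were 35 of 62 CpGs at MESP1, 34 of 91 at TBX6, 28 of 86 at MESP2, 11 of 139 at GSC, 8 of 130 at TBXT, 3 of 72 at MIXL1 and 0 of 102 at EOMES. The 3 at MIXL1 lay at -494, -332 and 741 bases, and the first measured 37.9%, 15.9%, 1.52% and 21.7% in WT and 59.7%, 33.3% and 77.8% in TKO. In the printed MIXL1 window the 25 shared CpGs together measured 1.71%, 1.53%, 0.267% and 0.649% in WT and 0.636%, 0.692% and 3.25% in TKO. By distance, calls at CP took in 27 of 352 CpGs within 500 bases of a start, 58 of 238 from there to 1500 bases and 34 of 92 farther out. Between WT CME and WT CP, 17 member CpGs were lower, where 2.15% of all were: 10 at MESP2 and 7 at TBX6. Between WT SC and WT CM, 17 were lower, where 1.63% were: 10 at MESP2, 5 at TBX6 and 2 at MESP1. In the same comparison 5 were higher, where 0.196% of all CpGs were: 4 at TBX6 and 1 at MESP1, so that TBX6 held calls in both directions. Between WT CP and WT CM, 2 were higher, where 0.0446% were: 1 at MESP1 and 1 at TBX6. Between TKO SC and TKO CME, 6 were lower, all at MESP1, where 0.0952% of all CpGs were, and 1 at MESP2 was higher, where 0.141% were. Between TKO CME and TKO CP, 27 were higher, where 0.995% were: 13 at MESP1, 10 at TBX6, 2 at MIXL1 and 2 at GSC.

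**Figure D5:**
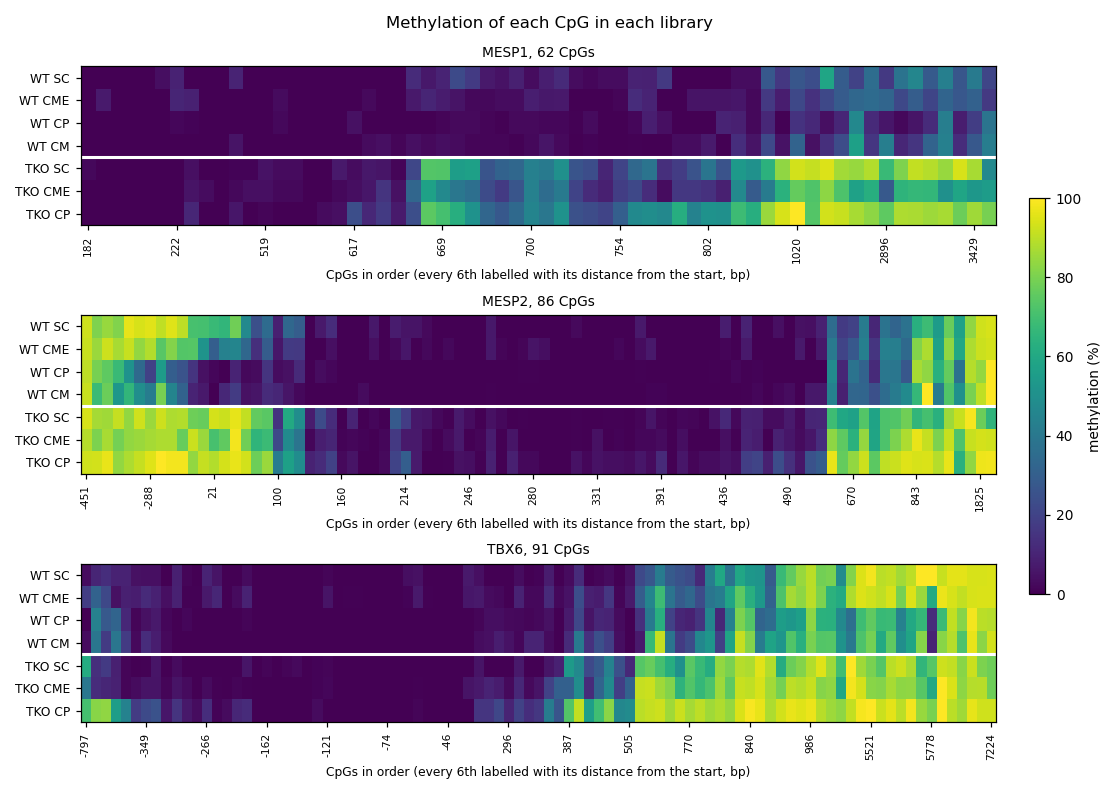
Methylation of every shared CpG (columns, in order of distance from the start, not to scale) in the 7 libraries (rows, WT above the white line, TKO below) at MESP1, MESP2 and TBX6, on a colour scale from 0% (dark) to 100% (bright). At MESP2 the CpGs nearest the start turn dark in WT CP and WT CM and stay bright in TKO, and at TBX6 the bright flank begins nearer the start in TKO CP than in WT.

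Of 31 other genes of the primitive streak and early mesoderm (signals, targets and further factors), 9 had a start that could be placed, with 26 tiles. Higher in TKO were 3 of these 26 tiles at SC (11.5%, against 6.26% of all tiles), 2 at CME (7.69%, against 6.02%) and 3 at CP (11.5%, against 12.0%), and none was lower. The share at CP was near that over the genome. WNT3A, a WNT ligand of the streak, had 2 of them at each stage, and WNT3, another, had 1 at SC and 1 at CP. The WNT3A promoter measured 3.75%, 3.29%, 0.596% and 0.592% in WT and 19%, 15.1% and 12.6% in TKO. No tile was called at BMP4, DKK1, FST, GATA6, HAND1, KDR or RIPPLY2.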

How the data were processed

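Each of the 7 libraries is 1 genotype at 1 stage. Alignment and methylation extraction were done by a core facility, per the labels' protocols, on hg19, per the submitters' processing notes. No aligner or caller is named in the sources used. The deposited files list, per the file headers, a coverage count for each cytosine and the percent of its reads that the authors called C or T. The lowest coverage listed is 10, and total coverage ran from 120742115 (WT SC) to 213058905 (TKO CME).

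Methylated reads were rebuilt from coverage and percent, and the strands of a CpG were summed. CpGs with 10 or more reads in each of the 7 libraries were kept. Levels are methylated over all reads, with 95% Wilson intervals. Tiles and single CpGs were tested by Fisher's exact test with Benjamini-Hochberg adjustment over the genome, and changes of the genotype gap between stages by a z test on reads with the same adjustment and thresholds. The tests were checked on simulated reads, drawn as independent binomial counts at the observed depths. Such reads hold no PCR copies, no reads shared by several CpGs and no spread between libraries. The check therefore does not cover these. Every gene and every called tile is described, and uncalled tiles are given as counts and ranges, apart from neighbours of called tiles and flanks chosen after their values were seen. The members and gene lists were chosen with earlier results of these data known. Sequences are of GRCh38.p14, where the rule had asked for the build of the files, and no coordinate was converted. Of 35116 promoter windows, 12476 were placed with 10 or more matching CpGs, while 5 were enough for a member. Gene ends are rounded hg19 positions. The software was Python 3.11.15 with pandas 2.3.3, numpy 2.4.6, numba 0.67.0, scipy 1.17.1 and matplotlib 3.10.9.

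Alternatives changed the coverage minimum, size threshold, tile grid and length, the CpGs used, strand, weighting, conversion and windows.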

Additional observations from a re-analysis of the deposited data

Results flagged for a closer look

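The genotype gap differed between stages in 5 instances, over 4 tiles, by the z test on reads, each from 4 libraries without replicates. Between SC and CP it widened by 25.4 points in the MESP2 tile over the start, by 28.7 points in the MESP2 tile from 451 to 912 bases and by 42.7 points in the TBX6 tile from 5501 to 5778 bases. Between CME and CP it widened by 38.0 points in the MESP1 tile from 2815 to 3469 bases and by 42.1 points in the same TBX6 tile. With each CpG counted equally, an alternative added after the data were seen, the MESP2 values were 17.0 and 12.2 points, both under the threshold of 25. The mitochondrial share subtracted left the first at 24.5 points, also under it. The TBX6 and MESP1 values stayed at 36.3 points or more under both.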

How the results depend on the processing

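No paired analysis was possible because each group is 1 library and the labels give no replicate numbers. Of 105 alternatives for the counts of tiles and CpGs, 82 left the count within 1.5 times. With a threshold of 40 points, the tiles called went from 7 to 4 for TKO CP minus WT CP, from 1 to 0 for WT CP minus WT CME, WT CM minus WT SC and TKO CP minus TKO CME, and from 3 to 1 and 2 to 1 for the widening of the genotype gap from SC and from CME to CP. A grid shifted by 500 bp, and 500 bp tiles, each called 2 tiles (MESP2 and TBX6) in place of 1 for WT CP minus WT CME and for WT CM minus WT SC, and 0 in place of 1 for TKO CP minus TKO CME, as the minus strand alone did. The plus strand alone called 1 in place of 3 for TKO CME minus WT CME, with 20 member tiles tested, and 1 MESP1 tile, lower, in place of 0 for TKO CME minus TKO SC, as did 20 reads per CpG. The causes were not tested.

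For single CpGs, alternatives added after the data were seen gave at 40 points 44 in place of 67 for TKO CME minus WT CME, 9 in place of 17 for WT CP minus WT CME, 0 in place of 2 for WT CM minus WT CP, 14 in place of 22 for WT CM minus WT SC, 0 in place of 7 for TKO CME minus TKO SC and 12 in place of 27 for TKO CP minus TKO CME. With 20 reads per CpG the last was 17. The share of all CpGs called was not computed at either setting.

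Of 40 promoter and body differences of 5 points or more, 276 alternatives changed the sign 4 times. These were the MESP1 promoter at SC and CME within 500 bases of the start, the TBXT body at CME on the plus strand and the GSC body from TKO CME to TKO CP with 20 reads per CpG. Of 77 smaller differences, 534 alternatives changed the sign 43 times.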
